A study of Arabidopsis thaliana with 39 samples.

Results

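Arabidopsis thaliana Col-0 seedlings kept with 20 mM urea for 48 h were compared with seedlings kept with 20 mM urea for 24 h, by RNA sequencing. The libraries were chosen by their titles as 3 urea 48 h and 3 urea 24 h libraries, 6 of the 39 in the series, and all 20001 gene rows of the deposited table were used. Plants of all 13 groups were Col-0, the common laboratory accession, had 2 days of cold before growth at 23 °C in continuous light with 1% sucrose, and were 14 days old at treatment in liquid culture. The other groups received urea for 6 or 12 h, 20 mM L-Glu (L-glutamate) or 1 mM SA (salicylic acid, a defence hormone) for 6, 12, 24 or 48 h, or were mock seedlings at 0 h. No mock group at a later hour was analysed here, so the length of urea treatment, the age of the seedlings and the age of the culture cannot be told apart in this comparison. The labels give neither the number of seedlings behind a library nor whether replicates were cultures of their own. A p-value below therefore describes the scatter among libraries, and that scatter could be technical. It was estimated within all 13 groups together and not from the 6 urea libraries alone.

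Urea is a nitrogen source for plants. It is taken up through the symporter DUR3 and other channels and is split by urease into ammonium and carbon dioxide, and the ammonium is built into glutamine, glutamate and asparagine. Seedlings in closed liquid culture also use up sugar and mineral nitrogen as they grow, and genes of amino acid breakdown, nitrogen uptake, photosynthesis and anthocyanin pigments are known to follow sugar and nitrogen supply.

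Sums over all genes of a library were 2445645 to 2607137 at urea 48 h and 2571045 to 2688591 at urea 24 h. These are sums of normalized values and not sequencing depth, which is unknown. The 10 genes with the highest values took 4.21% to 4.33% of the sum at urea 48 h and 5.63% to 6.36% at urea 24 h. Urea 48 h replicate 1 had 0.0919% of its sum in mitochondrial genes, against 0.0480% and 0.0533% in the other urea 48 h libraries and 0.0507% to 0.0552% at urea 24 h. Seedling organs were checked by marker genes. All 10 root markers and all 4 green shoot markers had values. The root markers summed to 2837, 2528 and 3190 at urea 48 h and to 3454, 3587 and 3297 at urea 24 h, and none of them was called. The green shoot markers summed to 22812, 18711 and 21051 at urea 48 h, against 32400, 34822 and 38322 at urea 24 h, and CA1 was the called member. Of the 3 seed and 5 flower markers in this check, PI alone had values, at 2.71, 7.18 and 13.1 at urea 48 h and 0.933, 0.684 and 4.62 at urea 24 h. In whole seedlings, fewer cells of a type and less RNA per cell cannot be told apart, and the part of organ makeup in the results below was not tested.

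Between 24 and 48 h of urea, 142 genes rose and 118 fell. The genes that rose included glycosyltransferases, glutathione transferases and cytochrome P450 genes of detoxification, genes of branched-chain amino acid and proline breakdown with the asparagine synthetase ASN1, and a high-affinity nitrate transporter. The genes that fell included late anthocyanin genes, jasmonate synthesis genes and nuclear genes of the photosynthetic apparatus. A change is given as a log2 fold change of 48 h over 24 h on the log2(value + 1) scale, which understates changes of genes with low values. The 260 genes called by limma (Benjamini-Hochberg adjusted p below 0.05) were 1.30% of the 20001 tested, with 0.710% higher and 0.590% lower. Of these genes, 100 were higher and 46 were lower by at least 2-fold. The median over all genes was -0.01, and 2720 genes had an unadjusted p below 0.05. The 3 urea 48 h values did not overlap the 3 urea 24 h values in 139 of the 142 genes that rose and in 116 of the 118 that fell, against 21.1% of all genes. The calls rest on these same libraries, so the high share without overlap follows largely from the calling and is no separate support. With every library scaled to the same total, 195 genes rose and 75 fell, and with quantile normalization 287 rose and 220 fell. The balance turned in other settings. A fit of the 4 urea groups alone called 376 genes higher and 505 lower, and a pseudocount of 4 gave 162 higher and 172 lower. Which direction held more called genes thus depended on the processing.

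The number of called genes depended on single libraries. It was 20 without urea 48 h replicate 1, 173 without urea 48 h replicate 2, 115 without urea 24 h replicate 1, 154 without urea 24 h replicate 2 and 54 without urea 24 h replicate 3. The 12 genes with the highest and the 12 with the lowest log2 fold changes were chosen among called genes whose groups did not overlap. The lack of overlap in these genes was therefore set by that choice and adds no support to their calls. Among the 12 with the highest, urea 48 h replicate 1 had the highest of the 3 urea 48 h values in 9. Among the 12 with the lowest, urea 24 h replicate 3 had the highest of the 3 urea 24 h values in 10. Of these 24 genes, 8 were called under every alternative that was run, namely AT2G43620, AT4G12500, CYP81D11, AT2G39518, HIS1-3, MES18, LDOX and AT4G14090.

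**Figure D1:**
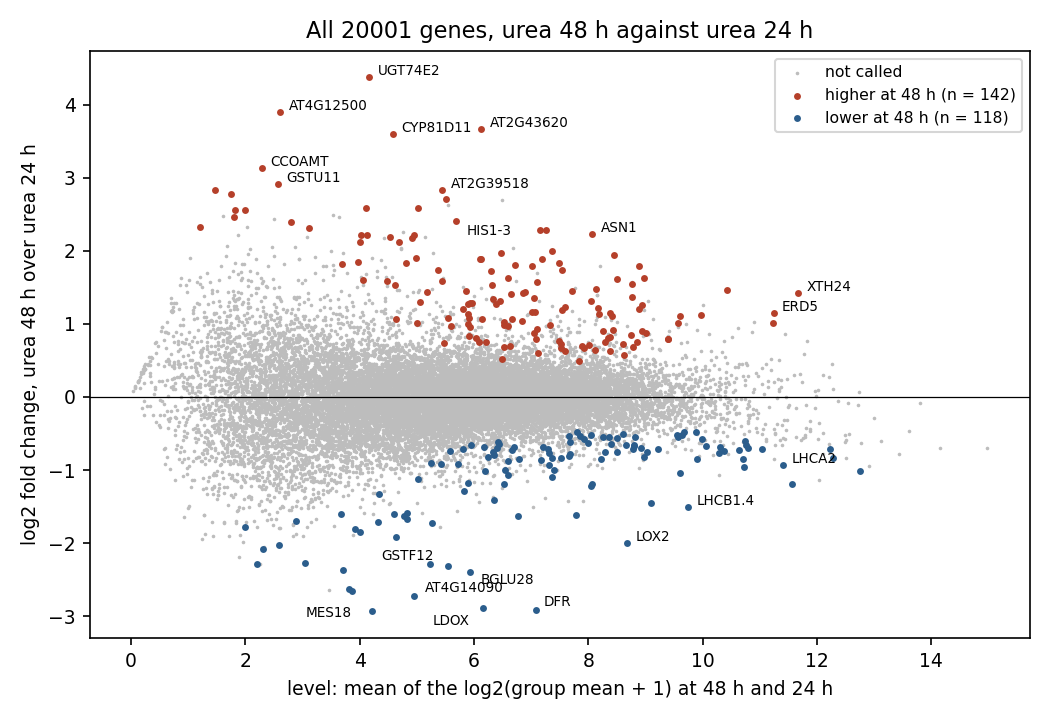
Log2 fold change of urea 48 h over urea 24 h (vertical axis) against the level of each gene (horizontal axis, mean of log2(group mean + 1) of both groups). Grey points are genes that were not called, red points the 142 that rose and blue points the 118 that fell; the highest point is UGT74E2 at 4.37 and the lowest is MES18 at -2.93.

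Genes of detoxification, which attach sugars or glutathione to foreign or reactive compounds or oxidize them, were among those with high log2 fold changes, with UGT74E2 first of all called genes. UGT74E2 (AT1G05680), a glycosyltransferase known to act on the auxin indole-3-butyric acid, had values of 186, 44.4 and 40.5 at urea 48 h and 3.69, 2.58 and 1.37 at urea 24 h. The groups lay far apart, and urea 48 h replicate 1 stood above the other 2 libraries of its group. The log2 fold change was 4.37 ± 0.80 (SE, limma adjusted p = 0.00386). In earlier urea groups UGT74E2 averaged 14.4 at 6 h and 3.09 at 12 h, and it averaged 3.52 in mock.

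CYP81D11 (AT3G28740), a cytochrome P450 gene, had values of 164, 29.3 and 66.6 at urea 48 h and 6.58, 1.74 and 8.29 at urea 24 h (log2 fold change 3.59 ± 0.54, adjusted p = 0.000516). Its relative CYP81D8 had 173, 132 and 58.7 at urea 48 h, against 15.3, 13.5 and 19.8 at urea 24 h (2.71 ± 0.62, adjusted p = 0.0195). Both cytochrome P450 genes were thus several-fold higher at urea 48 h in every library. The glutathione transferase gene GSTU11 had 23.3, 16.6 and 4.33 at urea 48 h and 3.69, 0 and 0.135 at urea 24 h (2.91 ± 0.54, adjusted p = 0.00396). The glycosyltransferase gene UGT73C1, which acts on cytokinins and on the explosive TNT, had 80.6, 26.3 and 24.8 at urea 48 h and 3.7, 5.99 and 7.13 at urea 24 h (2.58 ± 0.59, adjusted p = 0.0197). Urea 48 h replicate 1 was the highest library for both genes.

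CYP81D11, CYP81D8 and UGT73C1 are not members of the detoxification list. Of its 22 measured members, 6 rose (27.3%, against 0.710% of all genes) and none fell. The list median was 1.04, against -0.01 over all genes. Besides UGT74E2 and GSTU11 the members that rose were UGT73B3, a flavonoid and xenobiotic glycosyltransferase (1.80 ± 0.30), and the glutathione transferase genes GSTF7 (1.21 ± 0.31), GSTU7 (1.20 ± 0.30) and GSTF6 (1.01 ± 0.26). GSTF6 and GSTF7 are near-identical neighbours whose reads the counting could have split, so their separate values are uncertain, and the same holds for neighbouring UGT73 genes. AOX1D, an alternative oxidase of mitochondria chosen here after its values were seen, averaged 13.1 at urea 48 h and 1.28 at urea 24 h and did not pass the test (adjusted p = 0.0548). The lowest member was GSTU25 at -1.14 (adjusted p = 0.189). The list count was 0 without urea 48 h replicate 1, 3 without urea 24 h replicate 1 and 3 without urea 24 h replicate 2. UGT74E2, GSTU11 and UGT73B3 kept their calls when any other single library was left out.

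Other genes with high log2 fold changes came from several families. AT2G43620, a chitinase family gene, had 416, 187 and 168 at urea 48 h and 18.2, 12.6 and 23.5 at urea 24 h. Its groups did not come near each other, and the log2 fold change was 3.67 ± 0.39 (adjusted p = 9.59e-07). It had stayed at group means of 12.9 at urea 6 h and 18.3 at urea 12 h, beside 15.6 in mock. AT4G12500, annotated as a lipid transfer protein of the bifunctional inhibitor family, had 36.3, 10.4 and 24.5 at urea 48 h and 0.878, 0.43 and 0.218 at urea 24 h (3.90 ± 0.58, adjusted p = 0.000516). It lies in a tandem group of like genes, so its reads may be shared with neighbours.

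HIS1-3 (AT2G18050), a linker histone H1 variant known to respond to drought, had 89.3, 158 and 108 at urea 48 h and 17.3, 26.2 and 20 at urea 24 h (2.41 ± 0.36, adjusted p = 0.000516). Its groups were well apart, and its means over the course were 5.11 in mock, 8.6 at urea 6 h and 17.7 at urea 12 h. AT2G39518, a gene of the uncharacterized protein family UPF0497, had 150, 113 and 78.8 at urea 48 h and 18.2, 20.2 and 8.28 at urea 24 h (2.83 ± 0.38, adjusted p = 0.000111). CCOAMT, a caffeoyl-CoA methyltransferase of phenylpropanoid metabolism, had 9.7, 23.5 and 8.6 at urea 48 h and 0.832, 1.04 and 0 at urea 24 h (3.13 ± 0.64, adjusted p = 0.00947). The uncharacterized gene AT3G45730 (2.58 ± 0.57) and CRK20, a cysteine-rich receptor-like kinase (2.39 ± 0.53), complete the 12 genes. The calls of CCOAMT, AT3G45730, CRK20, CYP81D8 and UGT73C1 were lost without urea 48 h replicate 1 and also without urea 24 h replicate 3. Those of CCOAMT, CRK20 and CYP81D8 were lost as well without urea 48 h replicate 2, those of AT3G45730, UGT73C1 and CYP81D8 without urea 24 h replicate 1, and those of UGT73C1 and CYP81D8 without urea 24 h replicate 2.

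Genes known to rise when sugar runs short were higher at urea 48 h. ASN1 (AT3G47340), the glutamine-dependent asparagine synthetase also called DIN6, had 396, 881 and 480 at urea 48 h and 137, 154 and 74.5 at urea 24 h. The lowest urea 48 h library was well above the highest urea 24 h library, and the log2 fold change was 2.23 ± 0.49 (adjusted p = 0.0141). BCAT2, a branched-chain amino acid transaminase, had 196, 294 and 206 at urea 48 h and 85.9, 88.2 and 36.5 at urea 24 h (1.79 ± 0.43, adjusted p = 0.0257). BCE2, a subunit of the branched-chain keto acid dehydrogenase that acts after the transaminase, had 241, 403 and 238 at urea 48 h, against 126, 158 and 89.1 at urea 24 h (1.23 ± 0.28, adjusted p = 0.0199). RNA of these genes for consecutive steps of branched-chain amino acid breakdown was thus higher at urea 48 h. ASN1, BCAT2 and BCE2 lost their calls without urea 48 h replicate 1, urea 48 h replicate 2 or urea 24 h replicate 3. BCE2 lost it without urea 24 h replicate 1 as well.

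ERD5, the proline dehydrogenase that starts proline breakdown, had 3867, 4116 and 2729 at urea 48 h and 1740, 2098 and 1092 at urea 24 h (1.15 ± 0.26, adjusted p = 0.0196). TPS11, a trehalose phosphate synthase-like gene, had 560, 442 and 464 at urea 48 h and 232, 297 and 154 at urea 24 h (1.14 ± 0.26, adjusted p = 0.0195). The call of ERD5 was lost without urea 48 h replicate 1, urea 48 h replicate 2 or urea 24 h replicate 3. That of TPS11 was lost without urea 48 h replicate 1, urea 24 h replicate 1 or urea 24 h replicate 3. In all 5 genes urea 24 h replicate 3 was the lowest library, and none of the groups overlapped. Of 20 measured members of the sugar starvation list, 5 rose (25%, against 0.710% of all genes) and none fell. All 20 had log2 fold changes above 0, with a median of 0.75 and a range from 0.18 for TPS8 to 2.23 for ASN1. MCCA, a subunit of methylcrotonyl-CoA carboxylase in leucine breakdown, averaged 800 at urea 48 h and 349 at urea 24 h, and DIN4, another subunit of the branched-chain keto acid dehydrogenase, averaged 315 at urea 48 h and 163 at urea 24 h. Neither MCCA (adjusted p = 0.0606) nor DIN4 (adjusted p = 0.0555) passed the test, and both were chosen after their values were seen. The list count was 0 without urea 48 h replicate 1, 1 without urea 48 h replicate 2, 3 without urea 24 h replicate 1, 8 without urea 24 h replicate 2 and 0 without urea 24 h replicate 3.

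**Figure D2:**
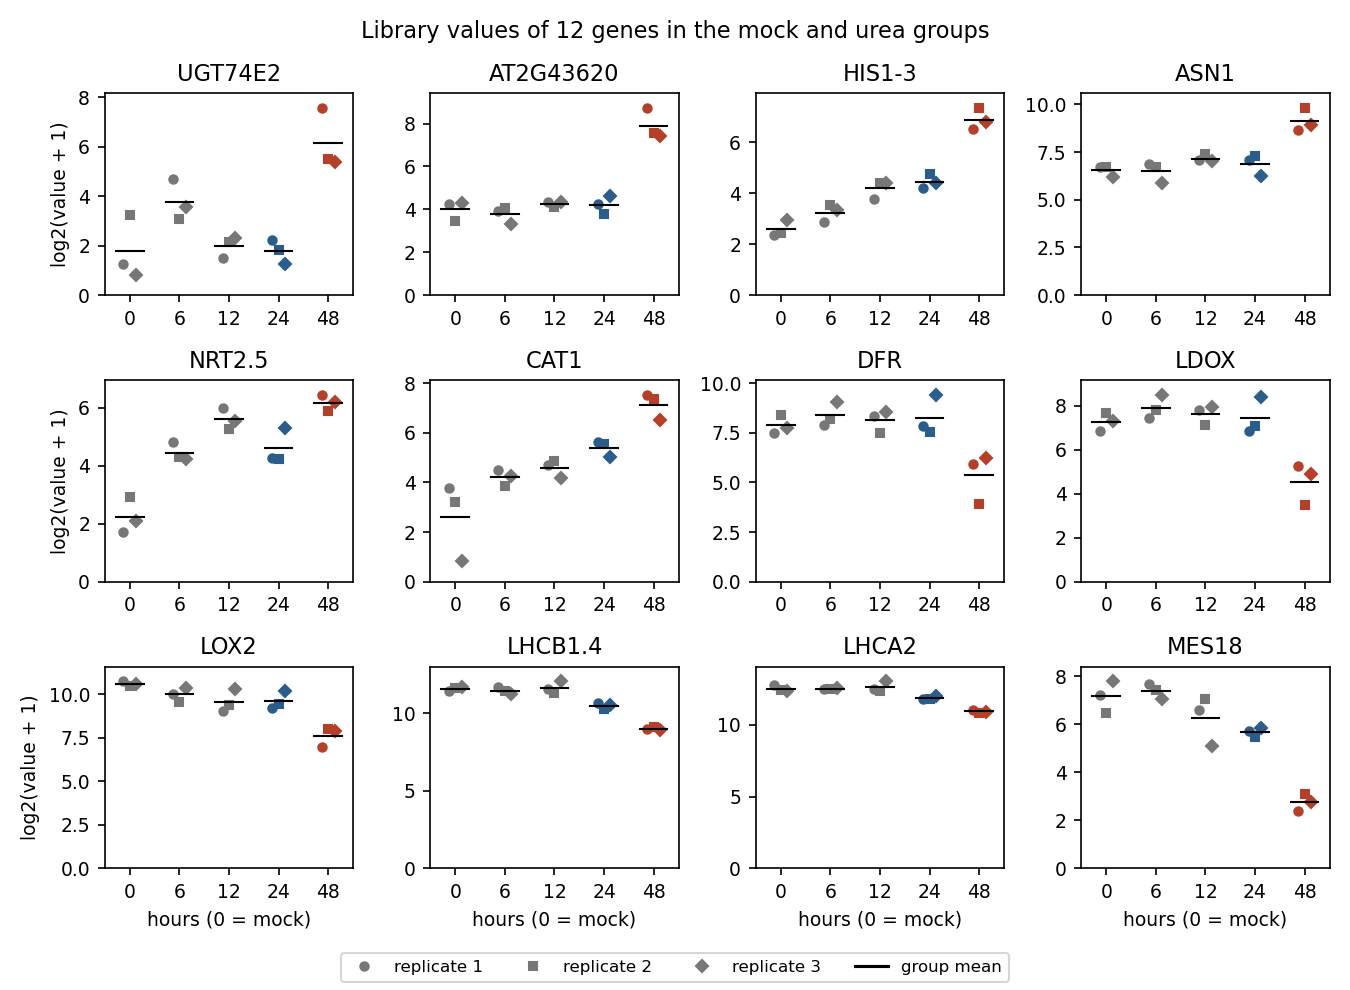
Library values of 12 genes, as log2(value + 1), in mock (0) and urea seedlings at 6, 12, 24 and 48 h (horizontal axis, in hours), with symbols for replicates 1 to 3 and bars for group means of the log2 values. Red marks urea 48 h and blue marks urea 24 h; AT2G43620, UGT74E2 and ASN1 stand higher at 48 h than in any earlier group, and DFR, LDOX and MES18 stand lower.

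Nitrogen uptake genes gave a mixed picture. NRT2.5 (AT1G12940), a high-affinity nitrate transporter known from nitrogen-starved roots, had 86.1, 58.6 and 72.4 at urea 48 h and 18.2, 17.8 and 38.3 at urea 24 h (1.58 ± 0.35, adjusted p = 0.0173). NRT3.1, the partner protein that NRT2 transporters need, had 211, 120 and 114 at urea 48 h, against 75.1, 53.9 and 76 at urea 24 h (1.06 ± 0.27, adjusted p = 0.0349). Transporter and partner were both higher at urea 48 h without overlap. They were the called members among 31 of the nitrate list (6.45%, against 0.710% higher over all genes), whose median was -0.03. NRT2.5 had been at 4.05 in mock, 21.3 at urea 6 h and 48.6 at urea 12 h on average. Both lost their calls without urea 48 h replicate 1, urea 24 h replicate 1 or urea 24 h replicate 2, and NRT3.1 also without urea 24 h replicate 3.

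Other nitrate genes did not pass the test. NRT2.1, the main high-affinity transporter of nitrate-fed roots, had 2.62, 0.298 and 1.42 at urea 48 h and 5.78, 1.42 and 3.34 at urea 24 h, with overlap (adjusted p = 0.476). The nitrate reductase gene NIA1 had 550, 431 and 465 at urea 48 h and 486, 507 and 547 at urea 24 h (adjusted p = 0.956). The nitrite reductase gene NIR1 had 261, 309 and 362 at urea 48 h and 441, 397 and 512 at urea 24 h, without overlap (log2 fold change -0.54 ± 0.20, adjusted p = 0.204).

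Among 19 measured genes of urea and ammonium use, none was called by limma, 1 higher and 2 lower had an unadjusted p below 0.05, and the median was 0.00. The urea symporter gene DUR3 had 230, 106 and 146 at urea 48 h and 100, 80.3 and 121 at urea 24 h, so the groups overlapped (0.62 ± 0.25, adjusted p = 0.244). Its group means over the course were 19.7 in mock, 52.8 at urea 6 h and 69.1 at urea 12 h. The ammonium transporter gene AMT1;1 had 44.6, 21.3 and 36.7 at urea 48 h and 30.8, 34.1 and 33.3 at urea 24 h (0.00 ± 0.24). Urease itself, URE, was at 0.02.

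CAT1 (AT4G21120), a transporter of cationic amino acids and the called member among 14 amino acid transporter genes, had 183, 162 and 89.8 at urea 48 h and 49.1, 45.5 and 31.1 at urea 24 h (1.73 ± 0.44, adjusted p = 0.0403). It had averaged 7.23 in mock, 17.7 at urea 6 h and 23.3 at urea 12 h. Among 23 measured genes of glutamine and glutamate metabolism, ASN1 and ERD5 rose and GAD2 fell (over all genes, 0.710% rose and 0.590% fell). GAD2, a glutamate decarboxylase that makes GABA, had 769, 836 and 787 at urea 48 h and 1159, 1086 and 1076 at urea 24 h (-0.47 ± 0.12, adjusted p = 0.0374). The groups were narrow and did not overlap, yet the call of GAD2 was lost when any of the 6 libraries was left out. The call of CAT1 was kept without urea 48 h replicate 3 and lost without any other of the 6.

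Late anthocyanin genes fell. DFR (AT5G42800), the dihydroflavonol reductase that opens the anthocyanin branch, had 59, 14 and 74.5 at urea 48 h and 231, 183 and 675 at urea 24 h. The groups did not overlap, but urea 24 h replicate 3 was far above the other urea 24 h libraries (-2.91 ± 0.54, adjusted p = 0.00416). LDOX (AT4G22880), which acts next, had 37.1, 10.1 and 28.6 at urea 48 h and 114, 132 and 331 at urea 24 h (-2.89 ± 0.52, adjusted p = 0.00372). The same library was again the highest. Group means of DFR had been 244 in mock, 350 at urea 6 h and 290 at urea 12 h. Replicate 3 was also the highest library of DFR at urea 6 h, with 234, 296 and 521, and at urea 12 h, with 325, 177 and 368. For LDOX, too, replicate 3 was the highest at both hours, though in mock replicate 2 was the highest for both genes. The labels do not say what a replicate number marks.

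Genes that decorate or move the pigments had like values. AT5MAT, an anthocyanin malonyltransferase, had 5.25, 3.24 and 4.36 at urea 48 h and 22.2, 20.3 and 66.3 at urea 24 h (-2.63 ± 0.50, adjusted p = 0.00488). UF3GT, an anthocyanin glycosyltransferase, had 21.8, 4.72 and 20.8 at urea 48 h and 33.8, 60 and 154 at urea 24 h (-2.28 ± 0.60, adjusted p = 0.0462). GSTF12, also called TT19, the glutathione transferase needed to bring anthocyanins into the vacuole, had 30.9, 7.4 and 19.6 at urea 48 h and 46.3, 67.1 and 209 at urea 24 h (-2.31 ± 0.59, adjusted p = 0.0407). Urea 48 h replicate 2 was the lowest and urea 24 h replicate 3 the highest library in each of the 3 genes. Replicate 3 was their highest library at urea 6 h and at urea 12 h as well. AT4G14090, a UDP-glycosyltransferase gene, was entered in the list but not counted in it, because its listed name was not found in the reference table. It had 10.7, 4.75 and 16.4 at urea 48 h and 43.5, 48.5 and 154 at urea 24 h (-2.73 ± 0.45, adjusted p = 0.00187).

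Of 22 counted members of the phenylpropanoid and flavonoid list, 6 fell (27.3%, against 0.590% of all genes) and none rose. The median was -0.70, and AT4G14090 fell besides them. The sixth was UGT78D1, a flavonol rhamnosyltransferase (-1.28 ± 0.26, adjusted p = 0.00947). Regulators and early steps, named here after their values were seen, did not pass the test. The MYB gene PAP1 averaged 1.34 at urea 48 h and 4.95 at urea 24 h (adjusted p = 0.238), and its bHLH partner TT8 averaged 14.7 at urea 48 h and 40.6 at urea 24 h (adjusted p = 0.125). The early phenylpropanoid genes PAL1, C4H and 4CL1 had log2 fold changes of 0.06, 0.03 and -0.06. The list count was 3 without urea 48 h replicate 2, 4 without urea 48 h replicate 1, 4 without urea 24 h replicate 2 and 1, LDOX, without urea 24 h replicate 3. It was 9 in the fit of the 4 urea groups alone.

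The gene with the lowest log2 fold change was MES18 (AT5G58310), a member of the methyl esterase family. It had 4.18, 7.47 and 5.8 at urea 48 h and 51.1, 43.5 and 56 at urea 24 h, with little scatter in either group (-2.93 ± 0.45, adjusted p = 0.000516). It had averaged 151 in mock, 170 at urea 6 h and 86.3 at urea 12 h. BGLU1, a glycosyl hydrolase gene, had 0.699, 9.19 and 5.27 at urea 48 h and 17.4, 21.4 and 64.3 at urea 24 h (-2.65 ± 0.46, adjusted p = 0.0035). AT4G15620 of the UPF0497 family (-2.37 ± 0.54), the glycosyltransferase gene AT5G41460 (-2.28 ± 0.52) and the methyltransferase gene AT3G21950 (-2.02 ± 0.53) also fell. AT3G21950 lost its call without any single library, BGLU1 without urea 48 h replicate 1, AT4G15620 without urea 48 h replicate 1, urea 24 h replicate 1 or urea 24 h replicate 3, and AT5G41460 without urea 48 h replicate 2 or urea 24 h replicate 3.

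BGLU28, a beta-glucosidase known to rise in sulfur shortage, had 11.5 to 67 at urea 48 h and 143, 94.7 and 117 at urea 24 h (-2.39 ± 0.58, adjusted p = 0.0298). Urea 48 h replicate 3, at 67, lay between the other urea 48 h libraries and urea 24 h. Of 22 measured sulfur genes, BGLU28 fell and SERAT2;1, a serine acetyltransferase of cysteine synthesis, rose (over all genes, 0.590% fell and 0.710% rose). Of the 22 log2 fold changes, 18 were below 0 and the median was -0.41. The fit of the 4 urea groups alone called 5 of these genes lower and 1 higher. SERAT2;1 had 255, 276 and 152 at urea 48 h and 119, 97 and 120 at urea 24 h (0.98 ± 0.21, adjusted p = 0.0122). BGLU28 lost its call without any single library other than urea 48 h replicate 3, and SERAT2;1 lost it without urea 48 h replicate 1, urea 48 h replicate 2 or urea 24 h replicate 2.

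Jasmonate genes that fell belong to synthesis or are its known targets. LOX2, the lipoxygenase of jasmonate synthesis in plastids, had 123, 253 and 239 at urea 48 h and 597, 684 and 1177 at urea 24 h (-2.00 ± 0.41, adjusted p = 0.00947). AOC2, an allene oxide cyclase of the same pathway, had 214, 356 and 425 at urea 48 h and 706, 760 and 1235 at urea 24 h (-1.45 ± 0.29, adjusted p = 0.00751). In both genes all urea 48 h libraries were below all urea 24 h libraries. CLH1, a chlorophyllase induced by jasmonate, had 16.3, 22.7 and 7.74 at urea 48 h and 28.1, 51.9 and 61.6 at urea 24 h (-1.58 ± 0.39, adjusted p = 0.0347). The list held 25 measured genes, of which 3 fell (12%, against 0.590% of all genes) and none rose. Its median was -0.23, and the repressor genes JAZ1 (0.14), JAZ2 (0.01) and JAZ10 (-0.05) were close to 0. The count was 0 without urea 48 h replicate 1 and 0 without urea 24 h replicate 3, and CLH1 also lost its call without urea 48 h replicate 3 or urea 24 h replicate 2.

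Nuclear genes of photosynthesis were lower at urea 48 h almost throughout. LHCB1.4 (AT2G34430), an antenna protein of photosystem II, had 513, 542 and 476 at urea 48 h and 1643, 1239 and 1476 at urea 24 h. Both groups were narrow and far apart (-1.50 ± 0.30, adjusted p = 0.00806). It belongs to a family of near-identical LHCB1 copies, so the division of reads among them is uncertain. LHCA2, an antenna protein of photosystem I, had 2120, 1816 and 1945 at urea 48 h and 3652, 3516 and 4069 at urea 24 h (-0.93 ± 0.20, adjusted p = 0.012). PSBQA, a subunit of the oxygen-evolving complex, had 1201, 1342 and 1194 at urea 48 h and 2203, 2328 and 2205 at urea 24 h (-0.85 ± 0.17, adjusted p = 0.00628). Earlier group means of LHCA2 were 5910 in mock, 5913 at urea 6 h and 6446 at urea 12 h, all above those at 24 and 48 h.

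Of 41 measured genes of the light reactions, 9 fell (22%, against 0.590% of all genes) and none rose. Besides LHCB1.4, LHCA2 and PSBQA these were the minor antenna gene LHCB5 (-0.83 ± 0.22), the photosystem II genes PSBY (-0.77 ± 0.17), PSBQ2 (-0.72 ± 0.17), PSBP1 (-0.71) and PSBO2 (-0.70), and FNR1 (-0.60), the ferredoxin reductase that makes NADPH. The median was -0.60, and 40 of the 41 log2 fold changes were below 0. In 35 of the 41 genes the groups did not overlap, against 21.1% of all genes. The member above 0 was ELIP2, an early light-induced protein gene, at 0.55 (adjusted p = 0.581). The values of the list summed to 78394, 69060 and 76467 at urea 48 h, to 114228, 111438 and 123517 at urea 24 h and to between 160448 and 199854 in mock. The list count was 0 without urea 48 h replicate 1, 5 without urea 48 h replicate 2, 5 without urea 24 h replicate 1, 5 without urea 24 h replicate 2 and 3 without urea 24 h replicate 3, and it was 5 with every library scaled to the same total.

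Of 26 measured genes of the Calvin cycle and photorespiration, 3 fell (11.5%, against 0.590% of all genes) and none rose. All 26 log2 fold changes were below 0 with a median of -0.58. CA1, a carbonic anhydrase of chloroplasts, had 4221, 5665 and 4769 at urea 48 h and 8790, 10994 and 9830 at urea 24 h (-1.02 ± 0.23, adjusted p = 0.019). CP12-2, a small regulator of Calvin cycle enzymes, had 470, 561 and 608 at urea 48 h and 997, 1201 and 1162 at urea 24 h (-1.04 ± 0.24, adjusted p = 0.0199). TIM, the plastid triosephosphate isomerase, had 615, 617 and 634 at urea 48 h and 884, 915 and 889 at urea 24 h (-0.53 ± 0.12, adjusted p = 0.0186). The groups of each gene were clearly apart. The lowest log2 fold change, -1.13 for the Rubisco small subunit gene RBCS2B, did not pass the test (adjusted p = 0.0621), and reads of the near-identical RBCS copies may be shared. The count was 0 without urea 48 h replicate 1, 1 without urea 48 h replicate 2, 2 without urea 24 h replicate 1, 0 without urea 24 h replicate 2 and 0 without urea 24 h replicate 3.

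**Figure D3:**
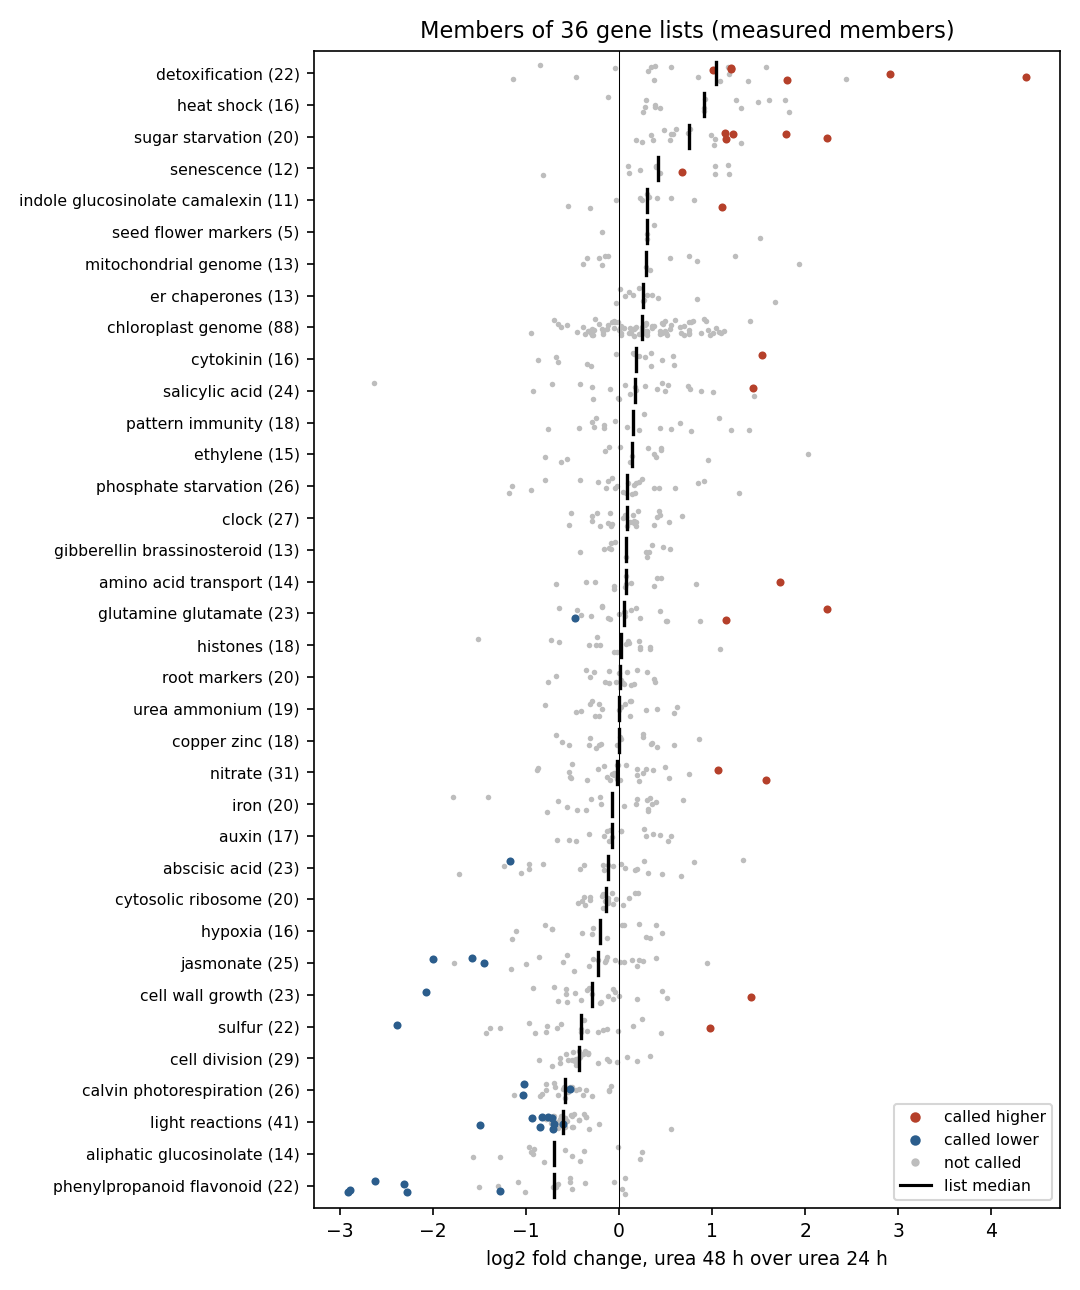
Log2 fold changes of urea 48 h over urea 24 h (horizontal axis) for the measured members of 36 gene lists (rows, ordered by median, with the number measured). Red and blue points are members that rose and fell, grey points were not called and black bars are list medians, from 1.04 for detoxification to -0.70 for phenylpropanoid and flavonoid genes.

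Among hormone and cell wall lists, single genes were called, beside 0.710% higher and 0.590% lower over all genes. XTH24, a xyloglucan-remodelling enzyme of the cell wall, had 5828, 5998 and 4231 at urea 48 h and 1932, 2213 and 1810 at urea 24 h (1.42 ± 0.35, adjusted p = 0.035). EXPA5, an expansin that loosens walls, had 1.62, 3.09 and 0 at urea 48 h and 5.73, 8.22 and 12 at urea 24 h, a fall at low values (-2.08 ± 0.43, adjusted p = 0.00969). These were the called members among 23 cell wall genes. DMR6, which hydroxylates and so removes SA, had 229, 196 and 159 at urea 48 h and 70.3, 80.9 and 61.7 at urea 24 h (1.43 ± 0.33, adjusted p = 0.0196) and was the called member among 24 SA genes. PR1, the usual marker of SA response, had 0.488, 1.31 and 9.75 at urea 48 h and 40.4, 23.6 and 7.74 at urea 24 h, with overlap (adjusted p = 0.126).

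CKX5, which breaks down cytokinins, rose by 1.54 ± 0.40 (adjusted p = 0.0465) among 16 cytokinin genes, and RD22, a drought and abscisic acid marker, fell by 1.17 ± 0.30 on the log2 scale (adjusted p = 0.0387) among 23 abscisic acid genes. CYP83B1, an enzyme of indole glucosinolate synthesis, had 1349, 1303 and 830 at urea 48 h and 523, 519 and 537 at urea 24 h (1.11 ± 0.26, adjusted p = 0.0225), among 11 genes of indole glucosinolates and camalexin. NYE1, which starts chlorophyll breakdown, had 321, 233 and 156 at urea 48 h and 148, 154 and 126 at urea 24 h (0.67 ± 0.17, adjusted p = 0.0393), among 12 senescence genes. Each gene of this group did not overlap between 48 and 24 h of urea. All of them, with XTH24, EXPA5 and DMR6, lost their calls without urea 48 h replicate 1. Without urea 24 h replicate 3 the calls of XTH24, EXPA5, DMR6, RD22, CYP83B1 and NYE1 were lost, and without urea 48 h replicate 2 those of XTH24, DMR6, RD22, CYP83B1 and NYE1. Leaving out urea 24 h replicate 1 ended those of XTH24, DMR6, CKX5, RD22, CYP83B1 and NYE1, urea 24 h replicate 2 those of XTH24, CKX5, CYP83B1 and NYE1, and urea 48 h replicate 3 those of EXPA5 and CKX5.

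The step from 24 to 48 h was set beside the same step in SA and in L-Glu seedlings, which used other libraries. In SA, 226 genes were called (1.13% of those tested), 37 of them higher (0.185%) and 189 lower (0.945%). In L-Glu, 7734 genes were called (38.7%), 3102 higher (15.5%) and 4632 lower (23.2%). Of the 142 genes that rose in urea, none was called higher in SA by limma (31 were at an unadjusted p below 0.05) and 110 had a log2 fold change above 0 there, which is 77.5%, against 47.7% of all genes. Of the 118 genes that fell in urea, 6 were called lower in SA, which is 5.08% of the urea and 3.17% of the SA calls, and 109 were below 0, which is 92.4%, against 52.3% of all genes. LHCB1.4 was among the 6, with 240, 408 and 218 at SA 48 h and 786, 911 and 847 at SA 24 h (-1.61, adjusted p = 0.00289).

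In L-Glu, 42 of the 142 genes that rose in urea were also called higher, which is 29.6% of the urea and 1.35% of the L-Glu calls, and 37 were called lower. Over all genes, 15.5% were called higher and 23.2% lower in L-Glu. Of the 142 genes, 57% had a log2 fold change above 0 in L-Glu, against 44.7% of all genes. Of the 118 that fell in urea, 56 were called lower in L-Glu, which is 47.5% of the urea and 1.21% of the L-Glu calls, and 12 were called higher. Below 0 in L-Glu were 70.3% of the 118, against 55.3% of all genes. HIS1-3 rose in both treatments, by 2.41 in urea and by 2.85 in L-Glu, where it had 80.9, 130 and 57.9 at 48 h and 7.28, 10.9 and 16 at 24 h. Of the light reaction genes, 9 fell in urea, 35 in L-Glu and 1 in SA, and the list median was -0.60 in urea, -1.09 in L-Glu and -0.24 in SA. For sugar starvation genes the median was 0.75 in urea, 0.10 in L-Glu and 0.28 in SA. By the test of the difference, 0 of the 20 measured members differed between urea and SA, against 0.0350% of all genes. More positive in urea than in L-Glu were 4 of the 20, against 14.4% of all genes. ASN1 had 710, 896 and 844 at SA 48 h and 178, 412 and 155 at SA 24 h. Its log2 fold change in SA was 1.85 ± 0.49 (limma adjusted p = 0.0506). Sums over all genes were 3197324 to 4090399 at L-Glu 48 h and 5278622 to 5886170 at L-Glu 24 h, and mitochondrial genes took 0.249% to 0.541% and 0.0397% to 0.0899% of them. The part of these library differences in the L-Glu values was not tested.

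**Figure D4:**
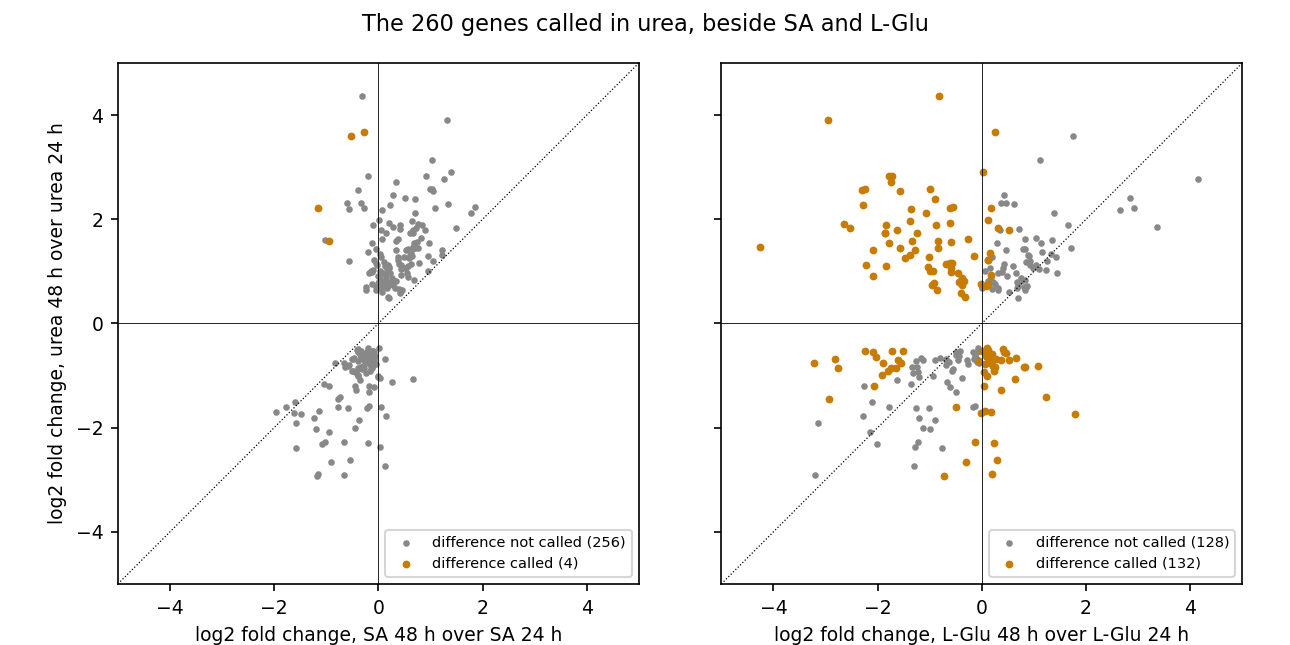
Log2 fold change from 24 to 48 h of the 260 genes called in urea (vertical axes) against the log2 fold change of the same genes in SA (left) and in L-Glu (right), 1 point a gene. Orange points are genes whose change was called different between the treatments, 4 beside SA and 132 beside L-Glu, and the dotted line marks equal changes.

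The difference between the urea and the SA change was itself tested, and 7 genes were called (0.0350% of 20001), 6 with a more positive change in urea (0.0300%) and 1 with a more negative one (0.00500%). CYP81D11 differed by 4.11 ± 0.77 (adjusted p = 0.0307), with 28.1, 32.7 and 33.2 at SA 48 h and 36.2 to 53.1 at SA 24 h. AT2G43620 differed by 3.95 ± 0.55 (adjusted p = 0.000506), with 43.3, 64.4 and 42.3 at SA 48 h and 61.4, 56.1 and 61.5 at SA 24 h. AT2G43620 thus had SA values in a narrow band and urea values that rose. CYP81D11 rose in urea, while its SA 48 h values all lay below its SA 24 h values. Its log2 fold change in SA was -0.52 and was not called. UGT75B1, a glycosyltransferase gene, had 75.5, 14.9 and 17.6 at urea 48 h and 3.72, 2.71 and 11.9 at urea 24 h, beside 18.8, 13.5 and 22.3 at SA 48 h and 45.1, 34.6 and 44.3 at SA 24 h, a difference of 3.37 ± 0.63 (adjusted p = 0.0307). NRT2.5 differed by 2.54 ± 0.50 (adjusted p = 0.0477), with 132, 153 and 147 at SA 48 h and 319, 260 and 263 at SA 24 h, all above the urea values.

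AT2G38390, a peroxidase gene, was the gene with the more negative change. It had 22.4 to 44 at urea 48 h and 77.1, 63.4 and 54.5 at urea 24 h, beside 783, 691 and 677 at SA 48 h and 211, 329 and 210 at SA 24 h (difference -2.68 ± 0.52, adjusted p = 0.0438). Its SA values were higher at 48 h and its urea values lower. The other called genes, named after their values were seen, were CEP2 (1.95), a cysteine endopeptidase, and AT3G61680 (2.17). They averaged 511 and 46.2 at urea 48 h and 470 and 50.1 at urea 24 h, beside 39.4 and 5.06 at SA 48 h and 143 and 27.2 at SA 24 h. No other of the 260 genes called in urea differed from SA past the threshold than UGT75B1, CYP81D11, AT2G43620 and NRT2.5. The count of 7 was 1 without urea 48 h replicate 1, 3 without urea 48 h replicate 2, 15 without urea 48 h replicate 3, 1 without urea 24 h replicate 1 and 1 without urea 24 h replicate 2.

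The urea and L-Glu changes differed in 4514 genes (22.6%), of which 2884 were more positive in urea (14.4%) and 1630 more negative (8.15%). With every library scaled to the same total, 17.4% of 6442 called differences were more positive, against 63.9% here, and the median over all genes was -0.47, against 0.07 here. Of the genes called in urea, 73 that rose and 59 that fell differed from L-Glu. These genes were chosen by their urea change, which is part of the difference, so a share above that of all genes follows in part from the choice. AT4G12500 had the highest difference, 6.85 ± 0.82 (adjusted p = 3.33e-07), with means of 1.94 ± 2.18 at L-Glu 48 h and 18.1 ± 6.28 at L-Glu 24 h (SD, n = 3 each). AT3G46280, a kinase-like gene, rose in urea with 686, 346 and 382 at 48 h and 198, 188 and 112 at 24 h, and fell in L-Glu with 250, 285 and 624 at 48 h and 9879, 8168 and 3862 at 24 h (difference 5.73 ± 0.54). Both genes changed in opposite directions in the 2 treatments, and AT3G46280 lost its urea call without any single library other than urea 48 h replicate 2.

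The other genes with the highest and lowest differences were not called in urea. IAA29, an auxin response repressor, had 0.575, 2.27 and 1.23 at urea 48 h and 2.75, 0.215 and 0 at urea 24 h, beside 5.27, 0.372 and 11.5 at L-Glu 48 h and 254, 298 and 214 at L-Glu 24 h (difference 6.18 ± 1.03). AT4G02170, annotated as a cotton fiber protein, was listed at 0 in the 3 urea 24 h libraries and had 0.615, 5.98 and 0.0887 at urea 48 h, beside 2.86, 6.52 and 1.46 at L-Glu 48 h and 140, 164 and 156 at L-Glu 24 h (difference 6.42 ± 1.13). Both differences rest on the L-Glu libraries. LTI78, a cold and drought marker, had 22.5, 23.9 and 19.2 at urea 48 h and 51.1, 42.4 and 45.4 at urea 24 h, beside 428, 926 and 232 at L-Glu 48 h and 62.1, 35.6 and 109 at L-Glu 24 h (difference -3.89 ± 0.50). LEA4-5, a late embryogenesis abundant protein gene, differed by -4.81 ± 0.81, the small heat shock protein gene AT1G52560 by -4.31 ± 1.07 and the cytochrome P450 gene CYP71B12 by -4.05 ± 0.83. LTI78 and these last genes were higher in every L-Glu 48 h library than in any L-Glu 24 h library.

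Levels of genes that rose in urea lay on either side of their levels in L-Glu. XTH24 averaged 5352 at urea 48 h and 981 at L-Glu 48 h, whereas UGT74E2 and CYP81D8 were lower in urea. UGT74E2 had between 40.5 and 186 at urea 48 h, against 3355, 8230 and 7934 at L-Glu 48 h and 8791 to 12685 at L-Glu 24 h. CYP81D8 had between 58.7 and 173 at urea 48 h, against 6527, 6764 and 15441 at L-Glu 48 h and 25355 to 38307 at L-Glu 24 h. For UGT74E2 and CYP81D8 the rise in urea thus ended at values that were far below those of L-Glu seedlings. In SA, UGT74E2 had 64, 69.2 and 116 at 48 h and 106, 89.6 and 107 at 24 h, a range that overlapped that of urea 48 h.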

How the data were processed

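RNA sequencing libraries of Col-0 seedlings were grouped by their titles into 13 groups of 3. The authors deposited 1 table of signal values, normalized values per gene and library that are not whole numbers. Tools listed in the submitters' processing notes are edgeR 3.22.3, HTSeq 0.6.0 and TopHat2 2.1.0, with the build TAIR10 and no roles. Neither the scaling of the values nor the use of strand in counting is given in the sources used here. Overlapping and antisense genes therefore cannot be told apart. No count test was used, because whole reads could not be recovered and the depth is unknown. Exact zeros occur in part of the libraries (in 2 of 3 at urea 48 h), so a gene at 0 is only listed at 0. Names came from the RefSeq table of TAIR10.1, which matched 19887 of 20001 identifiers, and no coordinates or sequences were used.

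Values were compared as log2(value + 1). All genes passed the filter (at least 1 in at least 3 libraries). All 39 libraries entered 1 limma 3.58.1 fit (R 4.3.3), which had 26 residual degrees of freedom, 13 group means, a variance trend over intensity and two-sided moderated tests. P-values were adjusted by Benjamini-Hochberg over all genes, and a gene was called below 0.05. The script was tested on simulated data. Named genes were the 12 highest and 12 lowest called changes without overlap, the higher group averaging at least 10, up to 6 called members of each list, the 4 highest and 4 lowest called differences from SA and from L-Glu, and DUR3, AMT1;1, NRT2.1, NIA1, NIR1, ASN1, SPX1, IRT1, CCA1, LHY, TOC1 and PR1, of which IRT1 was not analysed here. Of 700 entries in 32 hand-made lists, 641 were counted as measured, 16 were left out because the listed name did not match the reference table's names for the identifier (AT4G14090 among them), and 4 lists were made by rule. The groups, lists and rules were chosen with earlier results of these data known. The alternatives changed the scaling (3 ways), the pseudocount (to 0.25 or 4), the filter (none, or a value of 10) or the fit (fewer groups, no trend, a replicate block, each library left out).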

Additional observations from a re-analysis of the deposited data

Results flagged for a closer look

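The change from 24 to 48 h differed between urea and SA in 7 genes and between urea and L-Glu in 4514 genes, each by limma's test of the difference itself (adjusted p below 0.05). Beside SA the named differences in log2 fold change, urea minus SA, were 4.11 for CYP81D11, 3.95 for AT2G43620, 3.37 for UGT75B1, 2.54 for NRT2.5 and -2.68 for AT2G38390. Beside L-Glu they were 6.85 for AT4G12500, 6.42 for AT4G02170, 6.18 for IAA29, 5.73 for AT3G46280, -4.81 for LEA4-5, -4.31 for AT1G52560, -4.05 for CYP71B12 and -3.89 for LTI78. Both sets of differences use the same urea libraries. Groups of 3 libraries were not screened for outlying samples.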

How the results depend on the processing

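Of the 260 genes called between urea 48 h and urea 24 h, counts under other settings were 507 with quantile normalization, 881 in a fit of the 4 urea groups alone (251 of them shared) and 472 in a fit of the 24 and 48 h groups alone. Library deviations from group means (root mean square, log2) were 0.309 to 0.365 at urea 24 and 48 h and 0.326 to 0.524 in L-Glu, which shared the fit. The count ranged from 20 to 288 when single libraries were left out. The other settings gave 176 to 334. With the replicate number as a block, a fit of the 4 urea groups called 1377 genes, against 881 in the same fit without the block. Same-numbered libraries at 48 and 24 h correlated at -0.00, 0.16 and 0.20 in their deviations, and urea 48 h replicates 2 and 3, but not replicate 1, correlated best with their own number. Between urea groups at 6, 12 and 24 h, same-numbered libraries correlated at 0.025 to 0.177 and libraries of different number at -0.161 to 0.053. The labels do not say what a number marks, so the numbers were not used as pairs in the main fit and a shared culture was not tested.

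The 7 differences from SA became 12 with quantile normalization, 40 in a fit of the 4 groups alone, 135 with the replicate block, and 1 to 15 without single libraries. The 4514 differences from L-Glu became 2672 in a fit of the 4 groups alone, 2747 with the replicate block and 3824 to 4180 without single libraries, and quantile normalization put 52.8% of 4048 on the more positive side. AMT1;1 turned negative with a pseudocount of 0.25 (-0.0015), without urea 48 h replicate 1 (-0.22) or 3 (-0.08) and without urea 24 h replicate 1 (-0.04), its range without single libraries being -0.22 to 0.30, and SPX1 turned negative without urea 48 h replicate 3 (range -0.14 to 0.35). Neither was called. Of 60 named genes called in urea, 48 lost the call without urea 48 h replicate 1 and 41 without urea 24 h replicate 3, and the cause was not tested. NIR1, LTI78 and AT2G38390 were called lower, and TOC1 higher, in at least 1 smaller fit, and PR1 lower without urea 48 h replicate 3. Signal depth is unknown, so precision at low values cannot be given.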

Other observations

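Heat shock genes had a list median of 0.91 at urea 48 h over urea 24 h, with 15 of 16 members above 0, and limma called none (5 higher at an unadjusted p below 0.05). HSP70, a cytosolic chaperone, averaged 584 at urea 48 h and 149 at urea 24 h (log2 fold change 1.79, adjusted p = 0.0626), and the heat shock factor HSFA2 averaged 11.4 at urea 48 h and 2.31 at urea 24 h (1.82, adjusted p = 0.256). The list summed to 2071, 1199 and 813 at urea 48 h and to 467, 455 and 557 at urea 24 h, so urea 48 h replicate 1 was the highest. In the fit of the 4 urea groups alone, 3 members were called higher.

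Aliphatic glucosinolate genes had a median of -0.69, with 12 of 14 below 0, and cell division genes one of -0.43, with 26 of 29 below 0. Neither list held a gene called by limma (3 and 6 were lower at an unadjusted p below 0.05), and the fit of the 4 urea groups alone called 5 aliphatic glucosinolate and 2 cell division genes lower. Clock genes had a median of 0.08. CCA1 (-0.21), LHY (-0.29) and TOC1 (0.41, adjusted p = 0.0997) were not called, nor was the phosphate sensor gene SPX1 (0.14). Medians were 0.25 over 88 genes of the chloroplast genome and 0.28 over 13 of the mitochondrial genome, with none called (4 and 1 higher and 1 and 0 lower at an unadjusted p below 0.05). No member was called in the lists for auxin, ethylene, gibberellin and brassinosteroids, pattern immunity, hypoxia, iron, copper and zinc, phosphate starvation, endoplasmic reticulum chaperones, cytosolic ribosomes, histones, root markers, or seed and flower markers, and between 0 and 5 members of each had an unadjusted p below 0.05 in either direction.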
